A study of Rattus norvegicus with 12 samples.

Results

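MHC class II antigen presentation was described in rat liver through 9 genes: the invariant chain Cd74, the classical chains RT1-Ba, RT1-Bb, RT1-Da and RT1-Db1, the peptide editor chains RT1-DMa and RT1-DMb, the regulator Ciita and the ubiquitin ligase Marchf1. The genes were taken by symbol, as every probe set annotated to exactly 1 of these symbols. They make up 9 of the 14218 genes with at least 1 such probe set, and they have 16 probe sets in all. All 9 genes, and 13 of the 16 probe sets, had a mean log2 signal above 6.66, the median over all probe sets and the level a gene had to pass to be tested.

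Liver RNA from Sprague-Dawley rats, an outbred stock, was hybridised to 12 expression arrays, 1 per animal and 3 in each of 4 groups. The normal group ate standard chow, and the other groups ate a high-fat diet (HFD), which brings on a fatty liver. The HFD group had no treatment named in the labels. The QHD group had the HFD for 4 weeks and then, still on it, a daily gavage of Qushi Huayu Decoction, a Chinese herbal medicine, at 0.1 ml/kg for 4 more weeks. The GC group was treated on the same schedule with geniposide and chlorogenic acid mixed together, both plant compounds, whose dose the labels do not give, so the doses of QHD and GC cannot be matched. Every title names 4 weeks; neither the total time of the normal and HFD groups on their diets nor the sex and age of the animals is given in these labels.

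The array labelled normal 3 was left out of every comparison. The median log2 signal of 14 hepatocyte genes was 6.57 on it, against 14.70 to 15.18 on the other 11 arrays, and that of 8 adipocyte genes was 14.12, against 6.17 to 7.83. Its signals over the genes tested, which are not independent of each other, had correlations of 0.412 to 0.466 with the remaining arrays, whose correlations with each other were 0.930 to 0.981. The normal group therefore holds 2 animals, normal 2 and normal 4, and the small number of arrays sets how precise any comparison can be. HFD 24, HFD 36 and HFD 87, QHD 45, QHD 46 and QHD 47, and GC 35, GC 37 and GC 55 make up the other groups.

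Class II molecules are pairs of an alpha and a beta chain that show peptides from engulfed material to CD4+ T cells. In the rat the classical pairs are RT1-B, which corresponds to DQ in humans, and RT1-D, which corresponds to DR. The invariant chain Cd74 guides new pairs to endosomes and blocks their groove, and RT1-DM, the counterpart of human DM, helps to exchange its last fragment for a peptide. Ciita is the coactivator on which transcription of these genes depends, and Marchf1 tags class II molecules with ubiquitin for removal from the cell surface. In the liver, class II is carried mainly by Kupffer cells and other macrophages, dendritic cells and B cells, and hepatocytes normally carry little of it.

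Of the 9 genes, 6 lie on chromosome 20, which carries the RT1 complex, and Cd74, Ciita and Marchf1 lie on chromosomes 18, 10 and 16. Promoters of class II genes are known to carry an X box, to which the RFX complex binds, and a Y box, an inverted CCAAT to which NF-Y binds; Ciita is recruited by the proteins on them. Stretches of the promoters are shown because class II genes are known for this shared arrangement. Whether it bears on the changes described below was not tested. The sequences are RefSeq's on the GRCr8 build, given 5′ to 3′ on the strand of the gene, and of the 9 genes, 7 had a promoter window of 250 bases before to 50 bases after the gene start. Ciita and RT1-DMb are named only. Capitals mark, in RT1-Bb, RT1-Da, RT1-Db1 and RT1-DMa, an X box match (the letters ACNGATG with a G 3 bases before them) and then ATTGG, the inverted CCAAT. In RT1-Ba they mark TGACGTCA, the cyclic AMP response element, which reads the same on both strands, and then ATTGG.
RT1-Ba, chr20:4576978-4577028, plus strand: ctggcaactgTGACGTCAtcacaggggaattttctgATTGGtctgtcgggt
RT1-Bb, chr20:4604165-4604221, minus strand: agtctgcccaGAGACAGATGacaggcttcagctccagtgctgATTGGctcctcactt
RT1-Da, chr20:4515323-4515380, plus strand: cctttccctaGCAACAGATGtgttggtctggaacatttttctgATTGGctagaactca
RT1-Db1, chr20:4560228-4560284, minus strand: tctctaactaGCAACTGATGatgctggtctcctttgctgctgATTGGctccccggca
RT1-DMa, chr20:4712385-4712442, minus strand: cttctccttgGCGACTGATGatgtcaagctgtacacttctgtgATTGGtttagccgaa

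In the 4 promoters with both matches, 22 or 23 bases lie between the X box match and the inverted CCAAT. The letters were searched on both strands of the windows, and they were chosen after these sequences were seen. An X box match followed on its strand by ATTGG within 30 bases was found in 0.167% of 33465 promoter windows, an X box match alone in 2.84%, ATTGG in 37.5% and TGACGTCA in 1.83%. The ATTGG in capitals begins 43 to 80 bases before the gene start in the 5 promoters shown. Outside the capitals, RT1-DMa has a second ATTGG on its strand, 34 bases before the start, and RT1-Bb and RT1-Db1 have it on the other strand, 172 and 55 bases before it. Cd74 has ATTGG only on its other strand, 189 bases before the start, and neither other motif. The window of Marchf1 holds none of these letters, which says only that they are not in this window. A match is a description of the letters and does not show that a factor binds there.

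Transcripts of the class II genes were more abundant in all 3 HFD-fed groups than on normal chow. Of the 9 genes, 5 rose on the HFD, 8 rose with QHD and 8 rose with GC, each against the normal group, and none fell. A gene was called when the moderated p of limma, adjusted by Benjamini-Hochberg over all 9459 genes tested, was under 0.05. Of all genes tested, 0.328% were called higher for HFD, 4.77% for QHD and 6.2% for GC. The median log2 change of the 9 genes was 1.83, 1.78 and 2.07 in these comparisons, where that of all genes tested was 0.03, 0.05 and 0.05. These comparisons share the normal arrays, so they are not independent of each other, and in pieces of liver more cells that carry class II and more of its RNA per cell cannot be told apart.

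**Figure D1:**
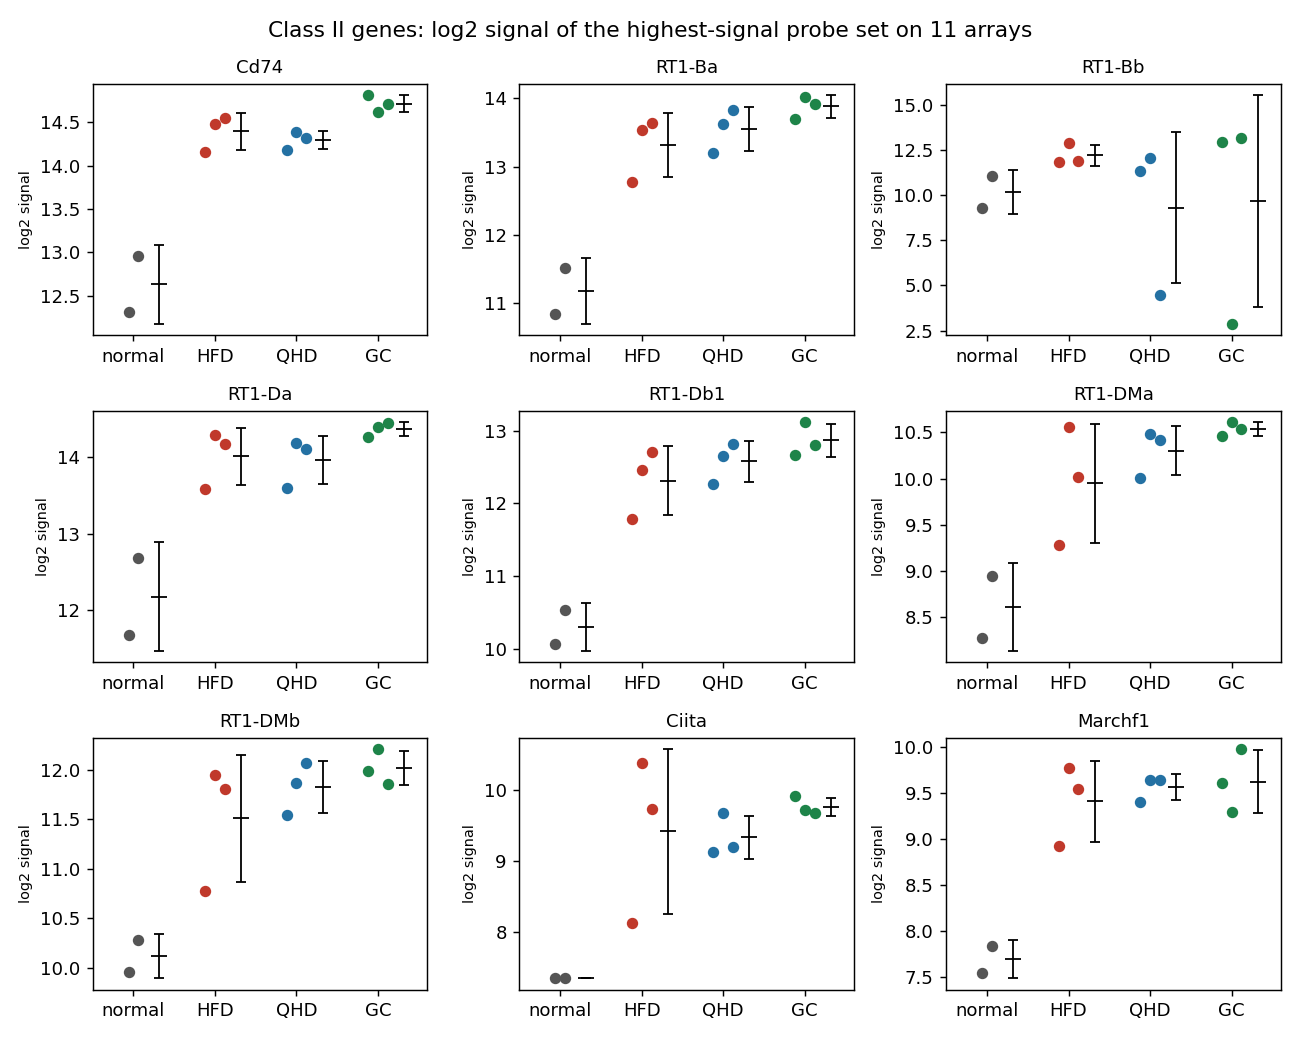
Log2 signal (y axis, a separate range per panel) of the 9 class II genes on 11 arrays, by group (x axis). Each point is 1 animal, and the bars beside the points are the mean ± SD of the group (n = 2 for normal, 3 for the others). In 8 panels both normal arrays lie below all 9 HFD-fed arrays, and in the panel of RT1-Bb the arrays QHD 47 (4.48) and GC 37 (2.87) lie below every other array. Of all genes tested, 17.5%, 26.5% and 26.5% had both normal arrays below the HFD, QHD or GC arrays, each group taken alone. The share for all 9 arrays together was not computed.

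Cd74, the invariant chain, stood at log2 12.31 and 12.96 on the normal arrays and at 14.15, 14.48 and 14.55 on the HFD arrays. With QHD it stood at 14.18, 14.38 and 14.32, and with GC at 14.81, 14.62 and 14.70. Both normal arrays lay below all 9 HFD-fed arrays, and the GC arrays were the 3 highest of all. Cd74 rose 3.38-fold on the HFD (log2 change 1.76 ± 0.17, SE, adjusted p = 0.00179 by limma), 3.16-fold with QHD (1.66 ± 0.17, adjusted p = 0.00144) and 4.21-fold with GC (2.07 ± 0.17, adjusted p = 0.000347), each against normal chow. It was called in these comparisons whichever of the 11 arrays was left out, with changes of 1.44 to 2.08, 1.34 to 1.98 and 1.75 to 2.40. By group mean the order was GC (14.71 ± 0.10, SD), HFD (14.39 ± 0.21), QHD (14.29 ± 0.10) and normal (12.64 ± 0.46), and HFD and QHD did not differ beyond their spread.

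RT1-Ba, the alpha chain of RT1-B, stood at log2 10.84 and 11.52 on the normal arrays, in the probe set that stood for the gene (1370822_at). On the HFD arrays it stood at 12.78, 13.54 and 13.64, with QHD at 13.20, 13.62 and 13.83, and with GC at 13.70, 14.03 and 13.92. Normal and HFD-fed arrays were apart, while the QHD arrays overlapped both HFD and GC. It rose 4.4-fold on the HFD (2.14 ± 0.28, SE, adjusted p = 0.0109), 5.17-fold with QHD (2.37 ± 0.28, adjusted p = 0.00268) and 6.52-fold with GC (2.70 ± 0.28, adjusted p = 0.00128). Group means were 11.18 ± 0.48 (SD, n = 2) for normal, 13.32 ± 0.47 for HFD, 13.55 ± 0.32 for QHD and 13.88 ± 0.17 for GC (n = 3 each).

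RT1-Da, the alpha chain of RT1-D, stood at log2 11.67 and 12.68 on the normal arrays and at 13.59, 14.28 and 14.17 on the HFD arrays. It stood at 13.60, 14.18 and 14.10 with QHD and at 14.27, 14.39 and 14.44 with GC. The lowest HFD-fed arrays, HFD 24 and QHD 45, were still above both normal arrays. RT1-Da rose by 1.83 ± 0.30 (SE, 3.56-fold, adjusted p = 0.0281) on the HFD, by 1.78 ± 0.30 (3.44-fold, adjusted p = 0.0101) with QHD and by 2.19 ± 0.30 (4.56-fold, adjusted p = 0.00429) with GC. Group means were 12.18 ± 0.71 (SD), 14.01 ± 0.37, 13.96 ± 0.32 and 14.37 ± 0.09 for normal, HFD, QHD and GC.

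RT1-Db1, the beta chain of RT1-D, stood at log2 10.07 and 10.54 on the normal arrays, in the probe set that stood for the gene (1370383_s_at). On the HFD arrays it stood at 11.79, 12.45 and 12.70, with QHD at 12.27, 12.65 and 12.82, and with GC at 12.67, 13.11 and 12.81. Every HFD-fed array was above both normal arrays, and the HFD-fed groups overlapped each other. RT1-Db1 rose by 2.01 ± 0.27 (SE, 4.03-fold, adjusted p = 0.00969) on the HFD, by 2.27 ± 0.27 (4.84-fold, adjusted p = 0.00234) with QHD and by 2.56 ± 0.27 (5.9-fold, adjusted p = 0.00114) with GC. Its promoter, shown above, holds the X box match and the inverted CCAAT, as do those of RT1-Da, RT1-DMa and RT1-Bb. RT1-Bb was not called in any comparison, and the windows of Cd74, RT1-Ba and Marchf1, which were called, hold no X box match. Whether these letters bear on the changes was not tested.

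The peptide editor chains were higher on the HFD-fed arrays too, but were not called for the HFD group. RT1-DMa stood at log2 8.27 and 8.95 on the normal arrays and at 9.28, 10.56 and 10.01 on the HFD arrays, at 10.002, 10.49 and 10.42 with QHD and at 10.47, 10.61 and 10.54 with GC. RT1-DMb stood at 9.96 and 10.27 on the normal arrays and at 10.77, 11.94 and 11.81 on the HFD arrays, at 11.54, 11.86 and 12.06 with QHD and at 11.99, 12.20 and 11.86 with GC. In both genes no HFD-fed array reached down to the normal arrays, and HFD 24 was the lowest of the 9. The change on the HFD was 1.34 ± 0.32 (SE, adjusted p = 0.0859) for RT1-DMa and 1.39 ± 0.30 (adjusted p = 0.0712) for RT1-DMb. With QHD they rose by 1.69 ± 0.32 (adjusted p = 0.0183) and 1.71 ± 0.30 (adjusted p = 0.0133), and with GC by 1.93 ± 0.32 (adjusted p = 0.00904) and 1.90 ± 0.30 (adjusted p = 0.00805).

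Ciita, the coactivator of class II transcription, stood at log2 7.36 on both normal arrays, in the probe set 1379381_at. On the HFD arrays it stood at 8.14, 10.37 and 9.74, with QHD at 9.12, 9.67 and 9.19 and with GC at 9.91, 9.71 and 9.67. Its HFD arrays spread the most of the 4 groups (SD 1.15, against 0.30 for QHD and 0.13 for GC) and held both the lowest and the highest HFD-fed value. The change was 2.06 ± 0.50 (SE, adjusted p = 0.0877) on the HFD, which did not pass, and it rose by 1.97 ± 0.50 (adjusted p = 0.0428) with QHD and by 2.41 ± 0.50 (adjusted p = 0.0172) with GC. A second probe set, 1369214_a_at, stood at 3.73 and 6.26 on the normal arrays and at 6.21 to 8.24 on HFD, 7.36 to 8.20 on QHD and 7.89 to 8.48 on GC arrays. HFD 24 lay just below normal 4 in it. It was called with GC (3.15 ± 0.69, adjusted p = 0.0354) and not with HFD (adjusted p = 0.256) or QHD (adjusted p = 0.0668).

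Marchf1, the ligase that turns class II molecules over, stood at log2 7.54 and 7.83 on the normal arrays (1389696_at). It stood at 8.92, 9.78 and 9.54 on the HFD arrays, at 9.40, 9.65 and 9.65 with QHD and at 9.61, 9.29 and 9.98 with GC. All HFD-fed arrays were over 1 log2 unit above the higher normal array, and the HFD-fed groups overlapped. Marchf1 rose by 1.72 ± 0.25 (SE, 3.31-fold, adjusted p = 0.013) on the HFD, by 1.88 ± 0.25 (3.68-fold, adjusted p = 0.00355) with QHD and by 1.94 ± 0.25 (3.83-fold, adjusted p = 0.00277) with GC. Its second probe set, 1384658_at, ran at 2.56 and 4.07 on the normal arrays and at 4.63 to 6.66 on the HFD-fed arrays, and was called with QHD (3.10 ± 0.58, adjusted p = 0.0195) and GC (2.64 ± 0.58, adjusted p = 0.0295).

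For RT1-Bb, the beta chain of RT1-B, each of the 2 probe sets taken alone read unlike those that stood for the other 8 genes. Its probe set 1371065_at, which stood for the gene, read log2 9.30 and 11.04 on the normal arrays, 11.83, 12.86 and 11.90 on HFD, 11.34, 12.07 and 4.48 on QHD, and 12.93, 2.87 and 13.16 on GC arrays. QHD 47 and GC 37 were over 4 log2 units below every other array, while the 7 other HFD-fed arrays were above both normal arrays. Its other probe set, 1371033_at, read 9.69 and 5.12 on the normal arrays, 4.92, 4.70 and 12.28 on HFD, 11.99, 12.39 and 13.07 on QHD, and 2.65, 13.33 and 6.45 on GC arrays. It was thus high on GC 37 and QHD 47, where the first was low, and low on normal 4, HFD 24, HFD 36, GC 35 and GC 55, where the first was high. On normal 2, HFD 87, QHD 45 and QHD 46 both were high. On every HFD-fed array at least 1 of the 2 probe sets read 11.83 or more, while neither read above 11.04 on a normal array.

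Neither probe set of RT1-Bb passed in any comparison. The change against normal in 1371065_at was 2.03 ± 3.44 (SE, adjusted p = 0.859) for HFD, -0.87 ± 3.44 (adjusted p = 0.909) for QHD and -0.52 ± 3.44 (adjusted p = 0.952) for GC. The interval on the HFD ran from -5.99 to 10.04, so a change of the size seen in the other genes could not have been detected. Over the 11 arrays 1371033_at spanned 10.68 log2 units and 1371065_at 10.29, the widest and second widest of the 15549 probe sets above the filter level, whose median span was 0.80. Cd74, in contrast, spanned 2.50.

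**Figure D2:**
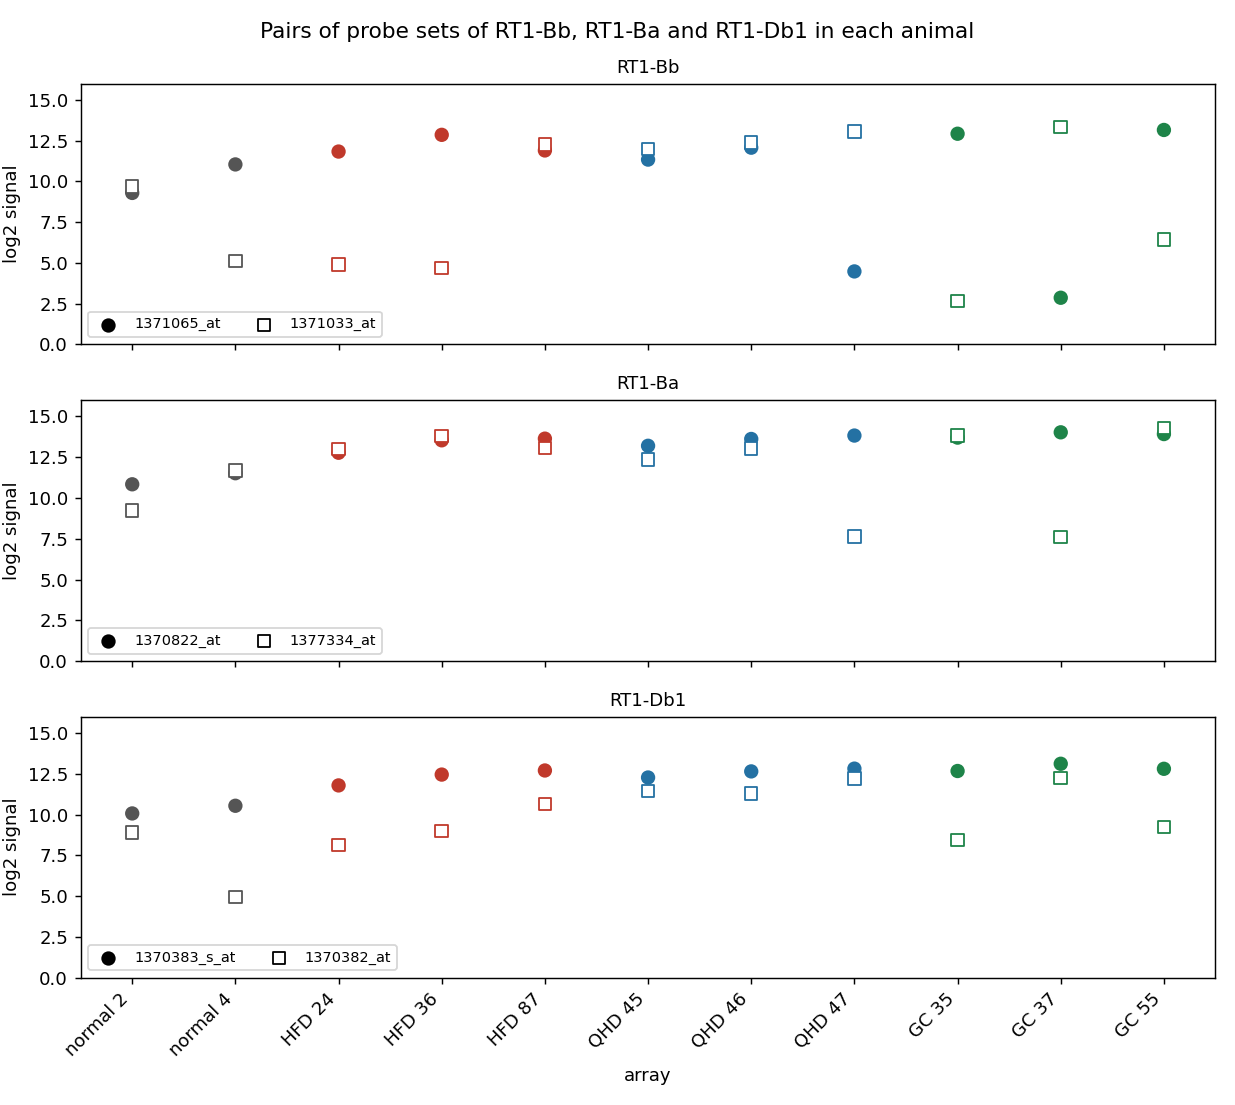
Log2 signal (y axis) of a pair of probe sets of RT1-Bb, RT1-Ba and RT1-Db1 on each of the 11 arrays (x axis). Filled circles are the probe set that stood for the gene and open squares the other one, coloured by group. On QHD 47 and GC 37 the circle of RT1-Bb (4.48 and 2.87) and the square of RT1-Ba (7.63 and 7.62) are low, while the circles of RT1-Ba and RT1-Db1 are as high as on the other HFD-fed arrays.

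RT1-Ba and RT1-Db1 each had a second probe set that divided the same animals. For RT1-Ba, 1377334_at read log2 9.23 and 11.68 on the normal arrays, 13.00, 13.81 and 13.07 on HFD, 12.36, 13.04 and 7.63 on QHD, and 13.83, 7.62 and 14.29 on GC arrays. The 2 arrays far below the others were again QHD 47 and GC 37, on which 1370822_at of the same gene read 13.83 and 14.03. For RT1-Db1, 1370382_at read 8.89 and 4.95 on the normal arrays, 8.13, 8.98 and 10.64 on HFD, 11.43, 11.28 and 12.22 on QHD, and 8.44, 12.23 and 9.22 on GC arrays. GC 37 and QHD 47 were its highest arrays, followed by QHD 45, QHD 46 and HFD 87, and these 5 are the HFD-fed arrays on which 1371033_at of RT1-Bb was high. Neither was called in any comparison. In 1377334_at the changes against normal were 2.84 ± 2.37 (SE) for HFD, 0.56 ± 2.37 for QHD and 1.46 ± 2.37 for GC. In 1370382_at they were 2.33 ± 1.48, 4.72 ± 1.48 and 3.05 ± 1.48.

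The other probe sets of RT1-Ba, 1381593_x_at and 1392334_at, read log2 5.03 to 7.76 and 5.13 to 7.98 over the 11 arrays, and most of these values lay under the filter level of 6.66. Both had their highest value on GC 37. Class II chain genes differ in sequence between rat strains, the animals came from an outbred stock, and their alleles and the probe sequences were not analysed here. Whether either bears on these probe sets was not tested.

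Over all 16 probe sets of the 9 genes, 5 were called higher for HFD, 8 for QHD and 10 for GC, each against normal, and none lower. Of all 31099 probe sets, without a filter on low values, 0.154%, 1.08% and 2.01% were called higher. The values of both normal arrays lay below those of all the arrays compared in 9 of the 9 genes for HFD, 8 for QHD and 8 for GC, RT1-Bb being the exception; among all genes tested the groups were apart in that direction in 17.5%, 26.5% and 26.5%.

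How far the calls against normal rest on single arrays differed between genes. Normal 2 was the lowest of the 11 arrays in 8 of the 9 genes, RT1-Bb being the exception. Without it normal 4 is the only normal array, and fewer genes of any kind were called against normal for HFD, QHD and GC. Class II genes lost calls too. For HFD, RT1-Ba (adjusted p = 0.126), RT1-Db1 (0.126), RT1-Da (0.161) and Marchf1 (0.15) then lost their call by limma, with changes of 1.80, 1.78, 1.33 and 1.58. RT1-Da lost it also without HFD 36 (0.065), HFD 87 (0.085) or GC 55 (0.0509), and Marchf1 without HFD 87 (0.0522). For QHD, RT1-Da (adjusted p = 0.0559), RT1-DMa (0.116), RT1-DMb (0.0881) and Ciita (0.154) were lost without normal 2, and for GC, RT1-DMa (0.0711), RT1-DMb (0.0598) and Ciita (0.085). RT1-DMb with QHD was lost without normal 4 (0.0532) as well. Ciita with QHD was lost without each array but HFD 24 and HFD 36, and Ciita with GC also without normal 4 (0.0762) or GC 35 (0.0549).

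HFD 24 was the lowest of the 9 HFD-fed arrays in 8 of the 9 genes. Without it RT1-DMa (1.68, adjusted p = 0.00624), RT1-DMb (1.76, adjusted p = 0.0015) and Ciita (2.70, adjusted p = 0.000766) passed for HFD by limma, so that 8 of the 9 genes were called. With normal 3 in the fit no gene of the 9 was called for HFD, 1 was called for QHD and 3 for GC. In that fit 0 of 9485 genes of any kind were called for HFD by limma, where 590 had an unadjusted p under 0.05, among them 8 of the 9. With the normal and HFD arrays alone no gene of the 9 was called either.

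**Figure D3:**
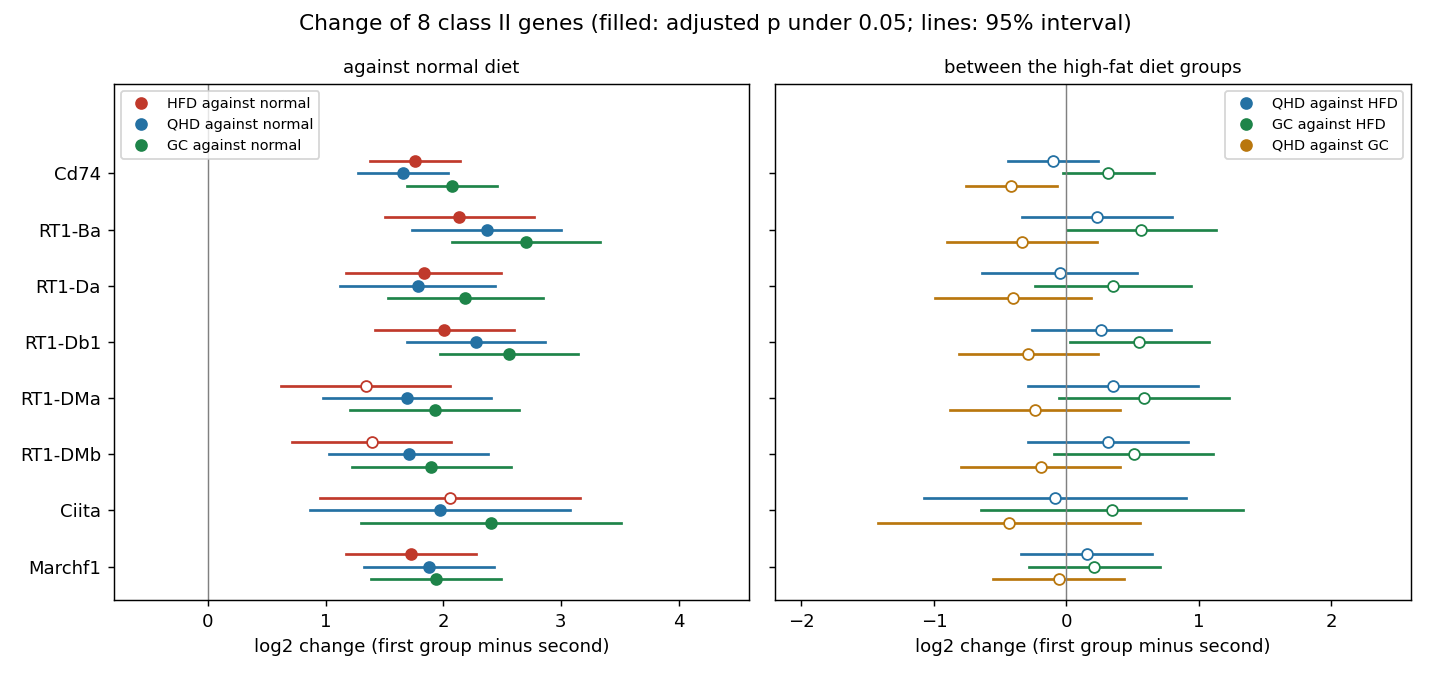
Log2 change (x axis) of 8 class II genes (y axis) against normal chow, left, and between the HFD-fed groups, right. Points are the limma estimates and lines their 95% intervals, and filled points have an adjusted p under 0.05. Left, all changes are above 1.3 and 21 of 24 points are filled. Right, no point is filled. RT1-Bb, whose intervals span over 14 log2 units, is not drawn.

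Between the HFD-fed groups no class II gene was called. For QHD against HFD, where 0.56% of all genes were called in either direction, the changes of the 8 genes other than RT1-Bb ran from -0.10 to 0.35, and 5 of the 8 were above 0. RT1-DMa differed most (0.35 ± 0.29, SE, 95% interval -0.29 to 0.99, adjusted p = 0.664), and Cd74 differed by -0.10 ± 0.16 (interval -0.44 to 0.24, adjusted p = 0.838). The QHD and HFD values overlapped in all 9 genes, where the groups were apart in 17.5% of all genes. By unadjusted p, 0 of the 9 were under 0.05. The median of the 9 genes was 0.15 and that of all genes 0.02. No probe set of the 16 was called, where 0.215% of all probe sets were.

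For GC against HFD the 8 genes other than RT1-Bb were all higher with GC, by 0.21 to 0.59, and none passed (0.0951% of all genes did). RT1-DMa differed by 0.59 ± 0.29 (SE, 95% interval -0.05 to 1.23, adjusted p = 0.602), RT1-Ba by 0.57 ± 0.25 (adjusted p = 0.568) and RT1-Db1 by 0.55 ± 0.24 (adjusted p = 0.554). Unadjusted, RT1-Ba and RT1-Db1 had a p under 0.05. The 3 GC values lay above the 3 HFD values in Cd74 and RT1-Ba, and the groups were apart in either direction in 13.5% of all genes. The median of the 9 genes was 0.35, beside 0.03 for all genes. HFD 24 was the lowest array of the HFD group in all of these 8 genes. Without it 6 of the changes were smaller, from 0.14 for RT1-DMb to 0.30 for RT1-Ba, and those of Ciita (-0.29) and Marchf1 (-0.03) turned below 0. With array weights Marchf1 also stood below 0, at -0.03. Of the 16 probe sets none was called, where 0.00965% of all probe sets were.

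For QHD against GC the 8 genes were all lower with QHD, by 0.06 (Marchf1) to 0.43 (Ciita), and again none passed, where 0.275% of all genes did. The sign for Marchf1 turned without QHD 45 (0.02) or GC 55 (0.12), with array weights (0.13) and with the mean of its probe sets (0.20), and that for RT1-Db1 with the mean of its probe sets (0.70). Cd74 differed by -0.42 ± 0.16 (SE, 95% interval -0.76 to -0.07, adjusted p = 0.409), with all QHD values below all GC values, and was the one gene of the 9 with an unadjusted p under 0.05. RT1-Da was also apart (-0.40 ± 0.26, adjusted p = 0.665), which makes 2 of the 9 genes, where 18.5% of all genes were apart in either direction. The median of the 9 genes was -0.33, beside -0.01 for all genes. None of the 16 probe sets was called, where 0.0933% of all probe sets were. The comparisons of QHD and GC share the HFD arrays, and QHD and GC were given at doses that cannot be matched. A p that misses the threshold does not show that the groups are alike: the intervals of the 8 genes reach from -1.07 to 0.99 for QHD against HFD, -0.64 to 1.34 for GC against HFD and -1.42 to 0.56 for QHD against GC.

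By group mean over the 11 arrays, GC was highest and normal lowest in all 8 genes other than RT1-Bb. Without HFD 24 the HFD group stood above GC in Ciita and Marchf1, and without GC 55 or QHD 45 the QHD group stood above GC in Marchf1. QHD stood above HFD in RT1-Ba, RT1-Db1, RT1-DMa, RT1-DMb and Marchf1, and below it in Cd74, RT1-Da and Ciita. This order turned in RT1-Ba, RT1-DMb and Marchf1 without HFD 24, and in RT1-Da and Ciita without HFD 36, HFD 87 or QHD 45. In none of the 8 did QHD and HFD, neighbours in each of these orders, differ beyond their spread. GC overlapped the group next below it in each of the 8 except Cd74. The spread between animals was smallest with GC in 6 of the 8 genes, at 0.07 (SD) for RT1-DMa and 0.09 for RT1-Da, where it was 0.64 and 0.37 on the HFD. HFD 24 was the lowest HFD array in each of the 8 genes. It read 13.59 in RT1-Da, where HFD 36 and HFD 87 read 14.28 and 14.17, and 9.28 in RT1-DMa, where they read 10.56 and 10.01.

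The authors' deposited table gives its own p-values, without adjustment and with normal 3 counted in the normal group. In the authors' deposited table, 3 of the 16 probe sets had a p under 0.05 for normal with HFD, 5 for normal with QHD and 5 for normal with GC, beside 2.25%, 4.18% and 4.07% of all probe sets. The smallest of these, per the authors' deposited table, was 9.03e-05, for Marchf1 (1389696_at) between normal and QHD. In the authors' deposited table no probe set of the 9 genes had a p under 0.05 between HFD and either treatment, the smallest being 0.0681 for QHD and 0.105 for GC.

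Other genes of the class II pathway moved in part. Of 16 measured genes for antigen processing and the remaining chains, 1 rose on the HFD, 2 with QHD and 4 with GC against normal, and none fell. Cst3, the protease inhibitor cystatin C, rose by 0.65 ± 0.11 (SE, adjusted p = 0.0286) on the HFD and by 0.63 ± 0.11 (adjusted p = 0.00979) with GC. Ifi30, a lysosomal thiol reductase that unfolds antigens, rose by 0.84 ± 0.13 with QHD and 1.00 ± 0.13 with GC (adjusted p = 0.00775 and 0.00331). Ctss, the protease cathepsin S that trims the invariant chain, rose by 1.13 ± 0.22 (adjusted p = 0.0117) with GC. Cd44, an adhesion receptor that pairs with Cd74 on the cell surface, rose by 2.11 ± 0.42 with QHD and 2.25 ± 0.42 with GC (adjusted p = 0.0212 and 0.0121). The median of the 16 was 0.20, 0.32 and 0.19 for HFD, QHD and GC, beside 0.03, 0.05 and 0.05 for all genes. Called higher in the same comparisons were 0.328%, 4.77% and 6.2% of all genes tested.

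Of 14 measured genes of class II transcription and interferon signalling, 0 rose on the HFD and 2 each with QHD and GC. They were Irf8, a transcription factor of myeloid and B cells (1.56 ± 0.34, SE, adjusted p = 0.0277, and 1.82 ± 0.34, adjusted p = 0.0124), and Ifngr2, a chain of the interferon gamma receptor (0.72 ± 0.18, adjusted p = 0.039, and 0.82 ± 0.18, adjusted p = 0.019). The subunits of RFX and NF-Y, whose motifs are marked in the sequences above, were placed in this list. None of those tested was called on the 11 arrays, while without HFD 36 Rfx5 was called higher with QHD and with GC. Of 3 measured genes of costimulation, 0 rose on the HFD and 2 each with QHD and GC: Cd86, a costimulatory ligand for T cells and a further target of Marchf1 (0.96 ± 0.26, adjusted p = 0.0493, and 1.40 ± 0.26, adjusted p = 0.0105), and the adhesion molecule Icam1 (1.77 ± 0.43, adjusted p = 0.0394, and 1.94 ± 0.43, adjusted p = 0.0228). The median over these 14 genes was 0.31, 0.27 and 0.35 for HFD, QHD and GC against normal, and over the 3 genes 1.18, 1.77 and 1.94. By comparison, 0.328%, 4.77% and 6.2% of all genes tested were called higher. None of these lists had a gene called between the HFD-fed groups, while without HFD 36 Icam1 was called higher for GC against HFD.

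These counts rested on single arrays. Without normal 2 they fell to 0, or to 1 for the processing genes with GC (Ifi30), and without normal 4 they were 0 to 2 in each list. Without HFD 24 the counts for HFD became 4 of the processing genes, 2 of the transcription genes and 2 of the costimulation genes, and without HFD 36 the transcription genes called with GC became 6. Over all genes, calls in either direction became 309 of 9467 for HFD without HFD 24, from 50 of 9459. Without HFD 36 they became 1271 of 9444 for GC, from 909 of 9459. Fewer genes of any kind were called without normal 2 as well. Ifi30 with GC was called whichever array was left out. Cst3 on the HFD was called in 6 of the 11 fits that left out an array, Irf8 in 7 with QHD and 10 with GC, Ifngr2 in 4 and 7, Cd86 in 2 and 10, and Icam1 in 5 and 8.

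Some markers of cells that carry class II rose with QHD and with GC against normal, and 1 of them rose on the HFD. Among all genes tested, 0.328% were called higher for HFD, 4.77% for QHD and 6.2% for GC, with median changes of 0.03, 0.05 and 0.05. Of 8 leukocyte genes, 0 rose on the HFD, 4 with QHD and 6 with GC, with median changes of 1.06, 1.19 and 1.58. Their summed linear signal was 5914 to 8617 on the normal arrays, 8878 to 21429 on HFD, 13119.6 to 17473 on QHD and 17831 to 20417 on GC arrays. Of 16 macrophage and Kupffer cell genes, 0, 3 and 7 rose, with medians of 0.61, 0.50 and 0.84. Their summed signal was 59812 to 70219.6 on normal, 66422 to 109953 on HFD, 80287 to 94792 on QHD and 101034 to 107094 on GC arrays, so that HFD 24, the lowest HFD array, lay within the range of the normal arrays. Of 6 dendritic cell genes that were tested, 0, 1 and 3 rose, with medians of 0.70, 0.55 and 0.90. The summed signal of the 8 dendritic cell genes on the array was 1599.9 to 1799 on normal, 1951 to 2347 on HFD, 2062 to 2568 on QHD and 2175 to 2622 on GC arrays. Of 6 tested genes of B and plasma cells, 1, 2 and 3 rose, with medians of 1.08, 0.61 and 1.11. The summed signal of the 11 on the array was 1771 to 2305, 2981 to 5559, 2765 to 3411 and 2937.5 to 6525. No gene of these lists stood at 0 on any of the 11 arrays.

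Among the leukocyte genes, Coro1a, an actin-binding coronin, rose by 1.498 ± 0.37 (SE, adjusted p = 0.0411) with QHD and 1.95 ± 0.37 (adjusted p = 0.0128) with GC. The GTPase Rac2 rose by 1.15 ± 0.31 and 1.59 ± 0.31, and the actin-bundling Lcp1 by 1.23 ± 0.32 and 1.66 ± 0.32. Cd53, a tetraspanin, was called with QHD (1.69 ± 0.41, adjusted p = 0.0377) and also with GC. Arhgdib was called with GC (0.97 ± 0.23, adjusted p = 0.0235). Of the macrophage genes, Cd68, a lysosomal protein, rose by 0.99 ± 0.20 with QHD and 1.14 ± 0.20 with GC (adjusted p = 0.0211 and 0.00991). Itgam, a chain of the complement receptor CR3, rose by 4.92 ± 0.97 and 5.12 ± 0.97 (adjusted p = 0.0212 and 0.0127), from a normal mean of 2.93, which is under the filter level. Lyz2, a lysozyme, was called with QHD (1.35 ± 0.35, adjusted p = 0.0476) and also with GC. Aif1, an actin-binding protein of macrophages, and Cd5l, a secreted protein of Kupffer cells, were called with GC (1.70 ± 0.30, adjusted p = 0.00997, and 1.10 ± 0.22, adjusted p = 0.0145). Of the dendritic cell genes, the integrin chain Itgax rose by 2.74 ± 0.58 with QHD and 2.19 ± 0.58 with GC (adjusted p = 0.0246 and 0.0408). The lectin receptor Clec9a (1.65 ± 0.27, adjusted p = 0.00764) and the transcription factor Batf3 (2.15 ± 0.55, adjusted p = 0.0331) rose with GC. Of the B cell genes, Fcrla, an Fc receptor-like protein, rose by 1.9997 ± 0.33 on the HFD, 1.56 ± 0.33 with QHD and 1.54 ± 0.33 with GC (adjusted p = 0.0272, 0.0239 and 0.0181). The kinase Blk rose by 1.06 ± 0.29 and 1.38 ± 0.29 with QHD and GC (adjusted p = 0.0481 and 0.0152), and the scaffold protein Bank1 by 1.04 ± 0.26 with GC (adjusted p = 0.0306).

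The counts of these 4 lists moved with single arrays. Without normal 2 no gene of them was called for HFD, QHD or GC, and without normal 4 or QHD 46 none was called with QHD. Leaving out each array in turn gave 0 to 5 leukocyte genes for HFD, 0 to 7 for QHD and 0 to 8 for GC, and 0 to 8, 0 to 8 and 0 to 11 macrophage genes. It gave 0 to 1, 0 to 1 and 0 to 3 dendritic cell genes, and 0 to 2, 0 to 2 and 0 to 3 B cell genes. Without HFD 24 the counts for HFD were 5 leukocyte, 8 macrophage, 0 dendritic and 2 B cell genes, and those for QHD 7, 8, 1 and 2. Over all genes, calls in either direction without HFD 24 were 309 of 9467 for HFD and 933 for QHD. On the 11 arrays they were 50 and 706 of 9459. With GC the leukocyte count was 3 without GC 35 or GC 55, the macrophage count 4 without GC 35 and 3 without GC 37 or GC 55, and the dendritic cell count 1 without QHD 45, GC 35 or GC 37. The leukocyte count with QHD was 0 also without HFD 87, QHD 47 or GC 55. Between the HFD-fed groups none of these genes was called, while without HFD 36 Lcp1 was called higher for GC against HFD.

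HFD 24 was low in the leukocyte and macrophage markers as well, and not in those of dendritic or B cells. Averaged over genes centred on their own means, HFD 24 stood at -0.44 in the 8 class II genes other than RT1-Bb, -0.62 in the leukocyte genes and -0.50 in the macrophage genes, and was the lowest HFD-fed array in each. HFD 36 stood at 0.55, 0.64 and 0.45. In the dendritic cell genes HFD 24 stood at 0.07, above HFD 87 at -0.11, and in the B cell genes it was the highest of the HFD group at 0.45.

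The shares of all genes called higher for HFD, QHD and GC were again 0.328%, 4.77% and 6.2%. Calls in either direction over all genes were 706 for QHD and 909 for GC of 9459. Without HFD 36 they became 1042 and 1271 of 9444. Of 10 tested T and NK cell genes 0, 0 and 1 rose for HFD, QHD and GC, with medians of 0.44, 0.58 and 0.79. The one was Lck, a kinase of T cells (0.82 ± 0.22 with GC, SE, adjusted p = 0.0372), which was called in 5 of the 11 fits that left out an array. Without HFD 36 the counts were 3 for QHD and 5 for GC, without HFD 24 they were 1 and 4, and without normal 2, QHD 45 or any 1 GC array the count for GC was 0. Of 5 tested adipocyte genes 1 rose, with QHD: Fabp4, a fatty acid binding protein that macrophages also make (2.74 ± 0.72, adjusted p = 0.0476). It kept its call in 1 of the 11 fits that left out an array, the one without QHD 45, and was called with GC without QHD 45 or QHD 47.

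Of 9 sinusoidal endothelial, 9 stellate cell and 14 hepatocyte genes none was called in any comparison, with medians against normal of -0.02, -0.06 and -0.18, of 0.59, 0.20 and 0.24, and of -0.04, -0.21 and -0.12. In the stellate cell list all 9 changes on the HFD were above 0, and the summed signal of the 10 genes on the array was 5535 to 6589 on normal and 9169 to 9840 on HFD arrays. Lyve1 and Kdr, endothelial receptors, had changes of -0.36 and -0.31 with GC (adjusted p = 0.101 and 0.213), Pdgfrb and Rgs5 of stellate cells and pericytes -0.64 and 0.65 with QHD (adjusted p = 0.222 and 0.0573), and Ttpa and Tat of hepatocytes -0.31 and -1.43 with GC (adjusted p = 0.122 and 0.0758), each against normal. The part of these cell types in the change of the class II genes was not tested.

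**Figure D4:**
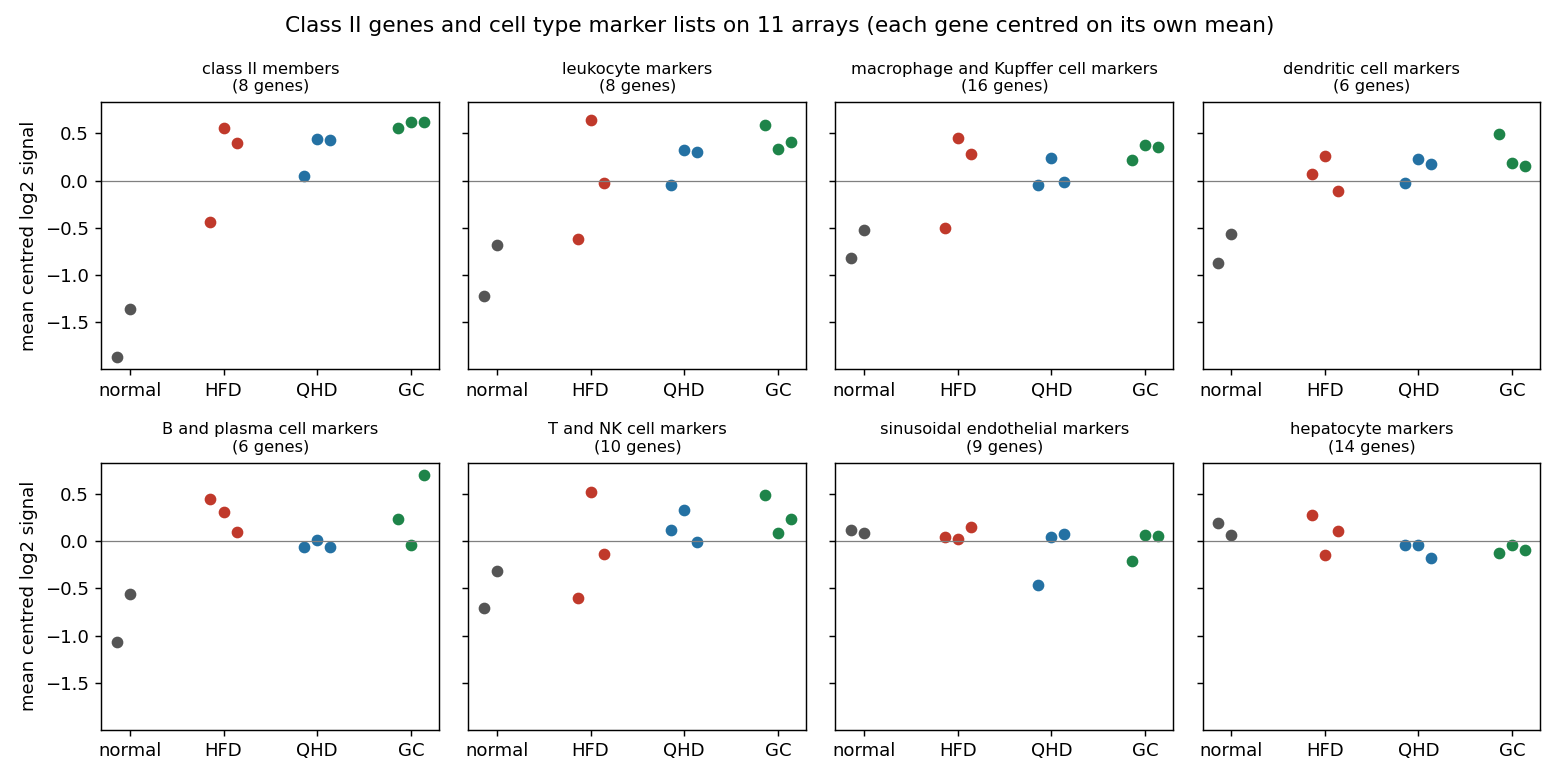
Mean over genes of the log2 signal, each gene centred on its own mean over 11 arrays (y axis), by group (x axis), for 8 class II genes and 7 lists of cell type markers. Each point is 1 animal. The normal arrays stand at -1.87 and -1.36 in the class II genes and at -1.22 and -0.68 in the leukocyte genes, and HFD 24 is the lowest HFD-fed point in the class II, leukocyte, macrophage and T and NK cell panels.

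The genes whose pattern over the 11 arrays was most like that of Cd74 were found by the root mean square difference of log2 signal, each gene centred on its own mean. Among the 9 class II genes RT1-Da was nearest, at 0.17, and was the nearest of all 9459 genes. Marchf1 followed at 0.24 as the 6th nearest of all genes. RT1-DMb, RT1-DMa and RT1-Db1 lay at 0.29, 0.29 and 0.30, RT1-Ba at 0.32 and Ciita at 0.46, where a flat profile would lie at 0.74. RT1-Bb lay at 3.36, among the 3 farthest of all genes. The 10 nearest genes outside the class II list were Fcgr3a, an Fc receptor for immunoglobulin G (0.19), Evi2b (0.21), Tmtc1 (0.22), Plscr1 (0.23), Lcp2 (0.26), Evl (0.27), Fgl2 (0.27), Pik3cd (0.27), Parp8 (0.27) and Pfkp (0.27). Fcgr3a stood at log2 9.35 to 10.20 on normal, 10.85 to 11.85 on HFD, 11.11 to 11.62 on QHD and 11.82 to 11.90 on GC arrays, and its groups fell in the same order as those of Cd74.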

How the data were processed

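The deposited values were log2 signals of 31099 probe sets per array, made by the authors with MAS5 in Affymetrix Expression Console, as named in the submitters' processing notes; the notes used here give no version. Total RNA, 6 µg per array, was labelled with biotin, per the labels' protocols. On the linear scale every array averaged 500 once the lowest and highest 2% of its signals were dropped, as computed here. A second deposited table held the same signals (largest difference 0). For each pair of groups the authors deposited a p-value from a test that is not named, and a fold change, a linear ratio per the file headers, which was not used. All per-sample columns were mapped to a sample.

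By GEO's platform annotation 20832 probe sets had 1 symbol, 436 had several and 9831 had none. Among probe sets with 1 symbol the one of highest mean signal represented the gene, and every probe set of the 9 genes is given. A gene was tested when its mean over 11 arrays passed the median of all probe sets (6.66), since detection calls were not used here. Models with 1 mean per group were fitted to the log2 signals of all 4 groups with limma 3.58.1 in R 4.3.3 (trend and robust options), without normal 3, which left 7 residual degrees of freedom. The p-values were adjusted by Benjamini-Hochberg over all genes, or all probe sets, of a comparison, and called under 0.05. The SE is limma's moderated one, SDs are between arrays, and intervals cover 95%. The labels give each array its own animal number, and nothing beyond that says how the animals were housed or sampled.

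The 9 genes, the marker and pathway lists and the arrays in the fit were chosen with earlier results of these data known. All 9 genes are named; of each other list, the genes called, up to 4 per comparison with the smallest p, and the 10 genes most like Cd74, placeholder symbols left out. Of lists with no call, the 2 genes of smallest p are named. Alternatives were all 12 arrays, the filter, quantile normalization, an offset of 32 on the linear signal, the variance model, array weights, only 2 groups, the mean of a gene's probe sets, and leaving out each array. The fit was tested on simulated data. Promoter windows came from RefSeq, GRCr8. Figures were drawn with matplotlib 3.10.9.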

Additional observations from a re-analysis of the deposited data

Results flagged for a closer look

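The array labelled normal 3, which took no part in the comparisons because its hepatocyte genes were low and its adipocyte genes high, held class II signals above those of both other normal arrays in 8 of the 9 genes. Cd74 stood at log2 13.86 on it, against 12.96 on the higher of the other normal arrays, RT1-Da at 13.51 against 12.68, RT1-Ba at 12.20 against 11.52 and RT1-Db1 at 11.87 against 10.54. RT1-Bb stood at 12.13 against 11.04, RT1-DMa at 9.69 against 8.95, RT1-DMb at 10.72 against 10.27 and Ciita at 8.05 against 7.36. Marchf1 was the exception, at 7.67 against 7.83. In Cd74, RT1-Ba, RT1-Da, RT1-DMb, Ciita and Marchf1 normal 3 still lay below the lowest HFD-fed array.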

How the results depend on the processing

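No change of a called gene changed sign under any alternative. The numbers of class II genes called against normal (5 of 9 for HFD, 8 for QHD, 8 for GC) became 0, 1 and 3 with all 12 arrays, and those of probe sets (5, 8 and 10) became 0, 1 and 2. For HFD, array weights gave 8 genes, the fit of only the 2 groups 0, and the mean of a gene's probe sets 3. Leaving out 1 array at a time gave 1 to 8 genes for HFD, 4 to 8 for QHD and 5 to 8 for GC, and 1 to 9, 4 to 10 and 5 to 10 probe sets. The lowest count was without normal 2 in each of these, shared with QHD 47 for the probe sets with QHD; HFD 87 gave 3 genes and 3 probe sets for HFD, and QHD 46 gave 5 probe sets for QHD. The highest was reached without HFD 24, and for QHD and GC without other arrays too. Without HFD 24, 309 of 9467 genes of any kind were called for HFD in either direction, where 50 of 9459 were on the 11 arrays. With all 12 arrays the changes for HFD were 1.35 for Cd74, 1.80 for RT1-Ba, 1.39 for RT1-Da and 1.49 for RT1-Db1. With 11 arrays they were 1.76, 2.14, 1.83 and 2.01. Marchf1 changed by 1.73 with 12 arrays and 1.72 with 11. Why the counts differed between settings was not tested. With the mean of all probe sets RT1-Ba changed by 0.93, 0.71 and 1.37 for HFD, QHD and GC and was not called. Ciita with QHD was not called without the filter (adjusted p = 0.0558 by limma). Quantile normalization, the offset, the stricter filter and the variance model changed no count by over 1.5 times. Between the HFD-fed groups the count was 0 in every setting run. Which probe set stood for RT1-Bb could change with the arrays kept. No paired analysis was possible because the groups share no replicate numbers. Over the 11 arrays the 2 probe sets of RT1-Bb spanned 10.29 and 10.68 log2 units. With that spread and 2 normal animals, changes of RT1-Bb could not be measured.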

Other observations

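Class I antigen presentation, which shows peptides from inside the cell to CD8+ T cells, was described by 18 measured genes. Against normal 0 rose on the HFD, 1 with QHD and 9 with GC, and none fell, with median log2 changes of 0.45, 0.50 and 0.83 beside 0.03, 0.05 and 0.05 for all genes tested. The same comparisons called 0.328%, 4.77% and 6.2% of all genes higher. With GC the genes of smallest p were RT1-M3-1, a nonclassical class I molecule (1.81 ± 0.33, SE, adjusted p = 0.0101 by limma), Psme2, an activator subunit of the proteasome (1.19 ± 0.23, adjusted p = 0.0117), and the immunoproteasome subunits Psmb9 (2.09 ± 0.41, adjusted p = 0.0138) and Psmb10 (1.76 ± 0.39, adjusted p = 0.0221). RT1-M3-1 was the gene called with QHD (1.51 ± 0.33, adjusted p = 0.0246). No gene of the list was called between the HFD-fed groups, with a median of 0.35 for GC against HFD, 0.05 for QHD against HFD and -0.39 for QHD against GC. These counts moved with single arrays. Without HFD 36, 6 genes were called with QHD, and 2, Psmb9 and Psme2, for GC against HFD. Without HFD 24, 4 were called with QHD and 2 on the HFD. Over all genes, calls in either direction rose in these fits too. Without HFD 36 they were 1042 of 9444 for QHD against normal, from 706 of 9459, and 126 for GC against HFD, from 9. The 9 genes with GC became 0 without normal 2, 1 without normal 4, 3 without GC 35 and 4 without GC 37, and RT1-M3-1 with QHD lost its call without either normal array or any 1 QHD array.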
